A study of Homo sapiens with 6 samples.

Results

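The genes described here are ATF4 and 9 stress genes that it is known to induce: ATF3, DDIT3, ASNS, PSAT1, PHGDH, CHAC1, TRIB3, SESN2 and DDIT4. These 10 genes, of 29810 in the table, were named as a list by their known function, with no threshold on measured values, and were matched by symbol to 1 Ensembl identifier each. They were measured by RNA-seq in Kasumi-1, an established line of acute myeloid leukaemia cells with the RUNX1-RUNX1T1 fusion. There were 3 control samples and 3 samples given 0.125 µM I1, a compound given in the labels by that code alone, and all were kept for 48 h. All 6 samples come from the same line, and the labels do not say what the control received or whether replicates were separate cultures, so the p-values take in no more than the spread of these 6 samples, and that spread may be technical. Levels are FPKM, reads scaled to the length of the gene and to the reads of its library, and differences are on the scale of log2(FPKM + 1), which understates changes of low genes.

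ATF4 is a transcription factor of the basic leucine zipper class. When cells run short of an amino acid, or misfolded protein collects in the endoplasmic reticulum, kinases phosphorylate the initiation factor eIF2, general translation slows and the ATF4 mRNA is translated more. ATF4 then binds, with partners of the C/EBP family, to a composite element near genes of amino acid synthesis and transport, of tRNA charging and of stress signalling. Because much of this control acts on translation, ATF4 mRNA alone does not report ATF4 protein, and the target transcripts are commonly read instead.

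The core of that composite element, TGATGNAA on either strand, was searched in RefSeq promoter windows (GRCh38.p14, 250 bases before to 50 after each start site). All 10 genes had at least 1 window. For the members only matches that end before the start site were counted, and 3 of them, ATF3, ASNS and CHAC1, held one. Over the whole window, a match was in 4.46% of 27305 genes and 3.62% of 35116 windows. These shares also take in the 50 bases after the start, so they are not a like measure. The 3 matches are shown because these members hold the letters of the core before the start site. Each has 11 bases on each side and the core in capitals, 5′ to 3′ along the gene's strand.
ATF3: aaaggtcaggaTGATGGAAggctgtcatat
ASNS: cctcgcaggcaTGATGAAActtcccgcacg
CHAC1: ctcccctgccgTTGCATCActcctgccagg
The ATF3 stretch lies at chr1:212565205-212565234 on the plus strand, outside annotated genes of GENCODE release 29, and its core begins 191 bases before the start site. That of ASNS is at chr7:97872458-97872487 on the minus strand, 68 bases before the start, and that of CHAC1 at chr15:40953251-40953280 on the plus strand, 209 bases before the start, with the core on the opposite strand. Both of these lie in an exon of a longer annotated transcript of their gene. The longer endoplasmic reticulum stress element, ERSE, searched on both strands, was in none of the members before the start site. Over the whole window it was in 0.0916% of all genes. A match is a run of letters, not a measured binding site. A missing match says only that the letters are not in the 250 bases before the members' start sites.

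The libraries held 16391000 to 18204000 reads by the step that 1 read makes in the table. All 8 genes fixed as typical of these myeloblasts, KIT, CD34, CD33, ANPEP, MPO, RUNX1T1, PTPRC and SPI1, were above the filter of 1 FPKM in at least 3 libraries. Of 14 genes of other cell types, EPCAM, PECAM1 and LYZ were above it, 8 were below it with KRT8 at 0 in all libraries, and 3 were not analysed here. The summed level of those analysed was 30.7 to 39.8 FPKM in control and 33.4 to 42.6 with I1. Most of that sum was EPCAM, with means of 25.0 FPKM in control and 28.4 with I1. Control replicate 1 stood apart. It lay at -43.8 on the principal component that carries 52.1% of the variance, with the others between -2.90 and 19.8, and GC-rich genes were higher in it (Spearman's rho 0.742 between GC content and its deviation from the gene mean over 11899 genes, which are not independent). The other libraries had rho between -0.580 and 0.262.

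The stress genes varied strongly between libraries, and far more by replicate number than by treatment. The libraries with number 2 were the lowest of their group for all 10 genes, in control and with I1 alike, whereas 15.0% of all 11913 tested genes had that pattern. Number 1 was the highest in both groups for 7 of the 10 genes and number 3 for DDIT4. The full order of 1, 3 and 2 from high to low held in both groups for those 7, ATF4, ASNS, PSAT1, PHGDH, CHAC1, TRIB3 and SESN2, and for 6.87% of tested genes. These patterns were picked after the values had been seen, so the shares of all genes are a description and not a test. Of the 11913 tested genes, 3114 were lowest at number 1 in both groups and 1657 at number 3. Control and I1 values overlapped for every member, whereas I1 lay wholly below control in 8.74% and wholly above it in 12.9% of tested genes. No member passed the test of I1 against control.

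ATF4 (ENSG00000128272, chr22:39519695-39522685, plus strand) was the most abundant of the genes per length. It had 327, 138 and 185 FPKM in control replicates 1 to 3 and 253, 122 and 155 FPKM with I1. Replicate 1 was thus high and replicate 2 low in each group, with 2.37-fold between the highest and the lowest control and 2.07-fold between the I1 libraries. I1 was the lower sample in each same-numbered pair, at 0.773, 0.885 and 0.841 of control. The means were 217 ± 98.5 FPKM in control and 177 ± 67.9 with I1 (SD, n = 3 each). The log2 fold change of -0.26 ± 0.354 (SE) did not pass limma's test (adjusted p = 0.705). Of 4 pseudogenes named after ATF4, ATF4P3 had 0.671 to 2.03 FPKM and the others at most 0.105 FPKM.

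ATF3 and DDIT3 are stress-induced factors of the same class, ATF3 an early repressor and DDIT3, also called CHOP, a factor that promotes cell death in lasting stress. Both were low. ATF3 (ENSG00000162772, chr1:212565334-212620777, plus strand) had 2.37, 1.31 and 2.00 FPKM in control and 1.84, 0.832 and 1.94 with I1, on 57 to 174 reads. Its level was lower with I1 in 3 of 3 pairs, by 0.24, 0.34 and 0.03 on the log2 scale, and the fold change of -0.20 ± 0.233 did not pass (limma adjusted p = 0.660). DDIT3 (ENSG00000175197, chr12:57516588-57521737, minus strand) had 5.73, 2.23 and 5.49 FPKM in control and 4.67, 3.36 and 5.23 with I1. Its pairs disagreed in sign, with 0.43 in pair 2 against -0.25 and -0.06 in the others. Both genes share the low number 2, and their replicates 1 and 3 lie close together in each group. DDIT3 overlaps 4 annotated genes, among them MARS1 on the other strand, and the sources used here do not say if the counting kept the strand, so its level is uncertain.

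The enzymes of amino acid synthesis differed widely in level. ASNS, which makes asparagine from aspartate and is among the best known ATF4 targets, had few counted reads. ASNS (ENSG00000070669, chr7:97852118-97872542, minus strand) had 45, 10 and 36 reads in control replicates 1 to 3 and 52, 17 and 45 in the I1 replicates, or 0.555, 0.130 and 0.457 FPKM against 0.712, 0.225 and 0.608. It stayed below the filter and was not tested. Its locus also holds a pseudogene on the other strand and a noncoding transcript on its own strand. The sources used here do not say how reads shared between overlapping genes were counted, so the level of ASNS is uncertain too. ASNS was the only member higher with I1 in each pair, at 1.28, 1.74 and 1.33 times control, a direction that 32.1% of tested genes had. PSAT1 (ENSG00000135069, chr9:78297143-78330093, plus strand), the aminotransferase of serine synthesis, was by contrast abundant, at 74.3, 41.4 and 50.2 FPKM in control and 82.5, 41.2 and 51.1 with I1. Its values repeated closely between the groups, with pair ratios of 1.11, 0.994 and 1.02.

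PHGDH (ENSG00000092621, chr1:119648411-119744226, plus strand), the enzyme that starts serine synthesis from a glycolysis intermediate, had 31.2, 4.91 and 8.43 FPKM in control and 21.5, 3.98 and 5.91 with I1. Its replicate 1 exceeded replicate 2 by 6.35-fold among controls and by 5.39-fold with I1. PSAT1, which acts next in the same pathway, spanned only 1.79-fold and 2.00-fold. PHGDH was at 0.689, 0.811 and 0.701 of control in the 3 pairs, a log2 fold change of -0.40 ± 0.706 (limma adjusted p = 0.770).

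CHAC1, an enzyme that breaks down glutathione, showed the widest fold range of the 10 genes in both groups. CHAC1 (ENSG00000128965, chr15:40952962-40956519, plus strand) had 13.6, 1.15 and 3.82 FPKM in control and 10.9, 1.40 and 3.77 with I1. These values rest on 508, 41 and 139 reads and on 366, 49 and 129 reads. The highest library exceeded the lowest by 11.8-fold among controls and 7.72-fold with I1, while control and I1 differed by no more than 0.30 on the log2 scale within any pair. TRIB3 (ENSG00000101255, chr20:362835-397559, plus strand), a pseudokinase that dampens ATF4 and CHOP activity, had 34.0, 9.21 and 21.5 FPKM in control and 22.5, 7.89 and 16.7 with I1. It was lower with I1 in each pair, at 0.663, 0.857 and 0.781 of control (log2 fold change -0.37 ± 0.484, limma adjusted p = 0.699).

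SESN2 and DDIT4 both restrain the growth kinase mTORC1, SESN2 as a leucine sensor and DDIT4, also called REDD1, through the TSC complex. They did not share one profile. SESN2 (ENSG00000130766, chr1:28259527-28282491, plus strand) followed the other targets, with 16.2, 5.50 and 10.8 FPKM in control and 13.2, 5.08 and 8.35 with I1. DDIT4 (ENSG00000168209, chr10:72273920-72276036, plus strand) was highest in replicate 3, with 10.4, 3.84 and 34.3 FPKM in control and 8.60, 4.30 and 28.1 with I1. Its span was 8.93-fold and 6.54-fold. DDIT4 is also known to be induced by low oxygen and by glucocorticoids. It overlaps the antisense gene DDIT4-AS1.

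**Figure D1:**
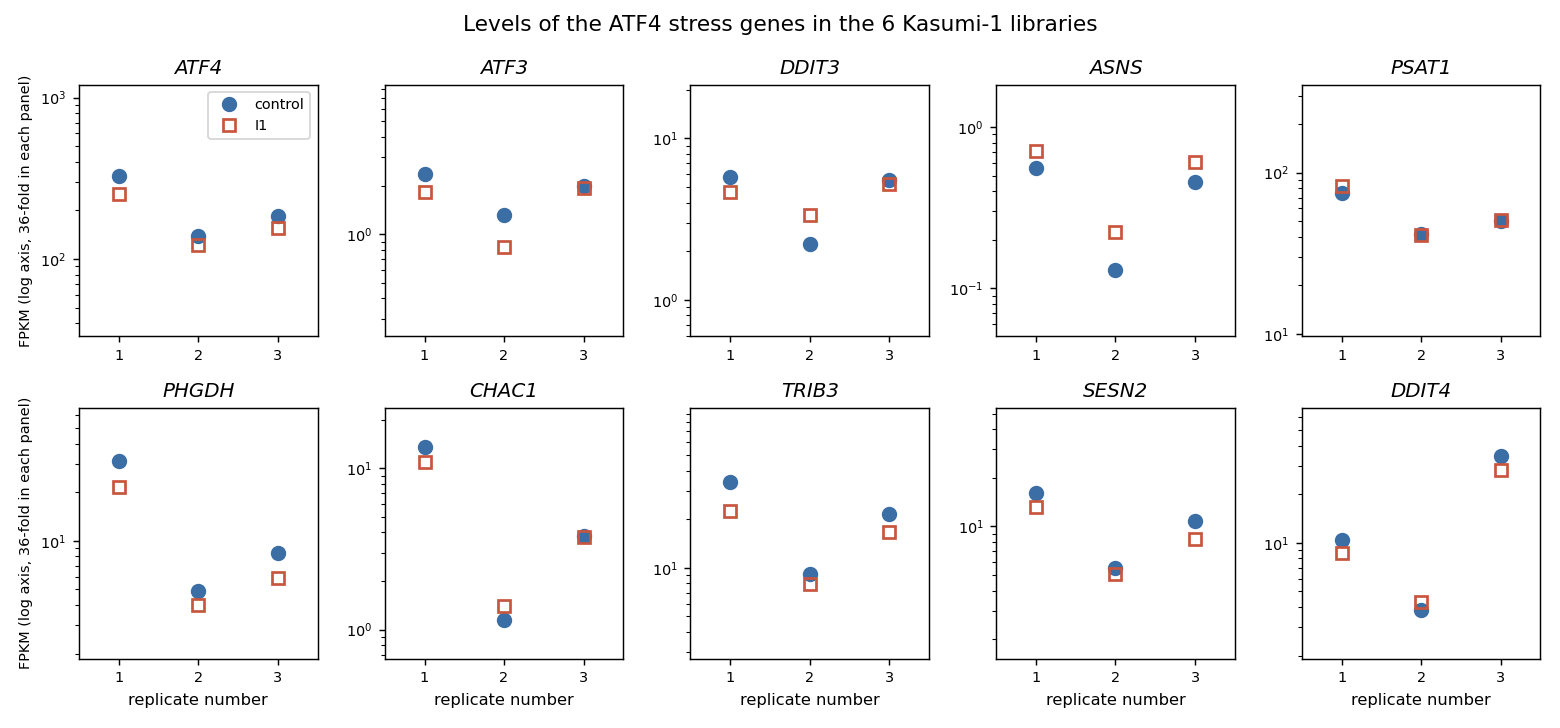
FPKM of each of the 10 genes (log axis covering 36-fold in every panel) against replicate number, filled circles for the 3 control and open squares for the 3 I1 libraries. Control and I1 of one number lie close together, number 2 is lowest in each group for all 10 genes, and DDIT4 alone is highest at number 3 in both groups.

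The replicate number was then tested, a comparison chosen after the values had been seen. limma's F test of the number beside the group was run over all 11913 tested genes, and 7 of the 9 tested members passed an adjusted p of 0.05, against 2.14% of all tested genes (255). PHGDH and DDIT4 had an adjusted p of 0.00313, CHAC1 0.00558, TRIB3 0.00937, ATF4 0.00972, SESN2 0.0146 and PSAT1 0.0198. DDIT3 (0.105) and ATF3 (0.136) did not pass. Ranked by this test over all genes, PHGDH was at place 3, DDIT4 at 6 and CHAC1 at 9. The labels do not say what a shared number marks.

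Mean levels of the 3 numbers, averaged over control and I1, spanned 2.66 for DDIT4, 2.53 for CHAC1, 2.31 for PHGDH, 1.59 for TRIB3, 1.32 for SESN2 and 1.14 for ATF4 on the log2 scale. The median span was 1.32 over the tested members and 0.31 over all tested genes. The number accounted for 82.8% (ATF3) to 99.1% (CHAC1) of the variance of each member over the 6 libraries, and the group for 0.0572% (CHAC1) to 12.4% (ATF3). The number has 2 degrees of freedom and the group 1. Medians over the members were 94.6% and 4.05%, beside 49.3% and 25.9% over all tested genes. After correction for GC content the same 7 genes passed, with adjusted p between 0.00324 and 0.00879, against 6.13% of all genes.

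The count depended on single libraries, most on those with number 2. Without control replicate 1, the library that stood apart, 7 members passed (3.46% of all genes), and without I1 replicate 1, I1 replicate 3 or control replicate 3, 8 passed, DDIT3 added (29.6%, 11.5% and 9.58% of all genes). Without I1 replicate 2, PSAT1 no longer passed (adjusted p = 0.0717; 0.848% of all genes). Without control replicate 2 only PHGDH, CHAC1 and DDIT4 passed (adjusted p = 0.0114, 0.0173 and 0.0107; 0.453% of all genes), and without the filter on low values none did, nor did any of 28196 genes (smallest adjusted p of a member 0.213, with 10 members and 3483 genes at an unadjusted p under 0.05). Of the marker genes of cell identity, 1 of 8 for myeloblasts and 1 of the 3 tested for other cells passed by number with all libraries, against 2.14% of all tested genes. LYZ, a gene of mature monocytes, was lowest at number 1, with 3.80, 9.22 and 10.4 FPKM in control and 3.49, 8.36 and 8.42 with I1 (limma adjusted p = 0.0160), and the progenitor marker CD34 was highest there, at 54.6, 34.1 and 29.9 against 52.5, 33.2 and 29.4 (adjusted p = 0.0212). The other 7 myeloblast genes did not pass. In control, KIT, PTPRC and RUNX1T1 were lowest at number 1, whereas CD33, ANPEP, MPO and SPI1 were highest there. With I1, PTPRC was again lowest at number 1, and CD33 and MPO were again highest there. The rest did not repeat: with I1, ANPEP and SPI1 were lowest at number 1, KIT at number 3 and RUNX1T1 at number 2. KIT had 149, 179 and 157 FPKM in control and 195, 203 and 190 with I1 (limma adjusted p = 0.406 by number). The part of LYZ and CD34 in the result was not tested.

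**Figure D2:**
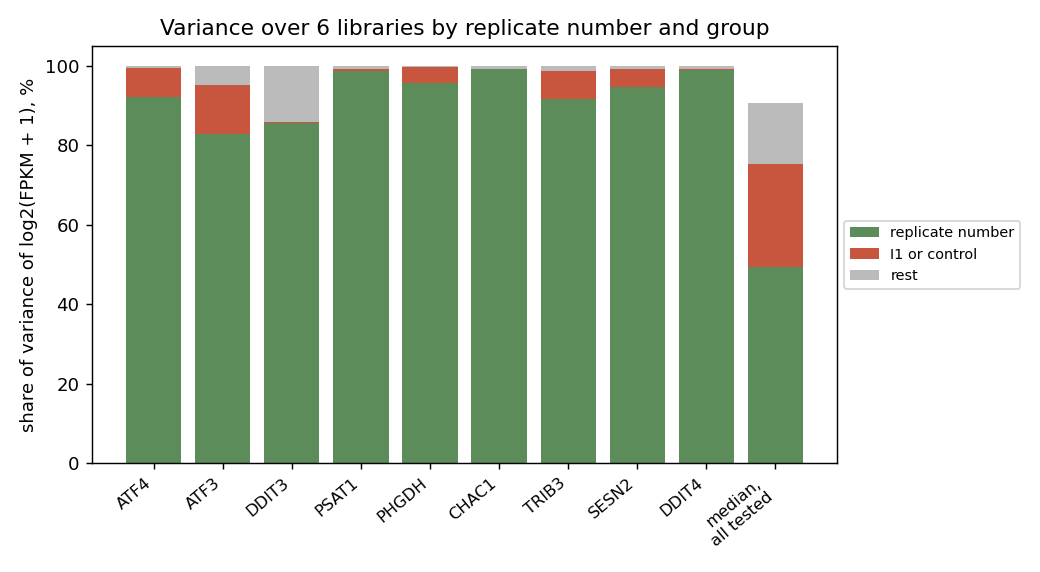
Share of the variance of log2(FPKM + 1) over the 6 libraries (percent) that lies between replicate numbers, between I1 and control, and in the rest, for each tested gene and as medians over all tested genes. The number takes 82.8% to 99.1% for the stress genes and a median of 49.3% over all genes; the last bar stacks 3 separate medians and so does not reach 100.

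For I1 against control, 0 of the 9 tested members rose and 0 fell by limma (adjusted p under 0.05 and a change of 1 or more on the log2 scale). Of all tested genes, 0.0336% passed. At an unadjusted p under 0.05 the members again numbered 0, against 9.57% of tested genes. The members' median log2 fold change was -0.20, beside 0.03 over all tested genes, with 7 below 0 and 2 above, against 45.5% of tested genes below 0. After a correction for GC content the median was -0.12, beside 0.00 over all tested genes. ATF4, ATF3, PHGDH, TRIB3 and SESN2 were lower with I1 in 3 of 3 pairs, 5 of 9, against 25.8% of all tested genes. The medians in pairs 1 to 3 were -0.28, -0.10 and -0.25. The standard error of the treatment difference was larger than the difference for all 9 tested members, and was 0.706 to 0.787 for PHGDH, CHAC1 and DDIT4.

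With the replicate number as a block the standard errors fell, from 0.354 to 0.0778 for ATF4, from 0.706 to 0.10 for PHGDH and from 0.484 to 0.102 for TRIB3. No member passed even so. Unadjusted p-values by limma with the block were 0.00567 for PHGDH, 0.00943 for TRIB3, 0.0125 for ATF4 and 0.0498 for SESN2, with adjusted p of 0.140, 0.140, 0.142 and 0.184. With the block, 27.1% of all tested genes had an unadjusted p under 0.05. With the block 0.0504% of all genes passed. The libraries differed in how level went with GC content, and a relation of these differences to GC content was not tested. The tested members had a median GC content of 56.7%, beside 47.9% over all tested genes. After a GC correction the log2 fold change was -0.34 for PHGDH, -0.27 for ATF3, -0.18 for TRIB3, -0.12 for ATF4 and -0.06 for SESN2, that of PSAT1 went from 0.06 to -0.15 and that of CHAC1 from -0.05 to 0.15. With the GC correction and the block together, limma's adjusted p was 0.226 for PHGDH, 0.261 for TRIB3, 0.335 for ATF4 and 0.670 for SESN2. Without control replicate 1 the median of the members was 0.09, without control replicate 2 -0.61, without I1 replicate 1 -0.54 and without I1 replicate 2 0.07.

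**Figure D3:**
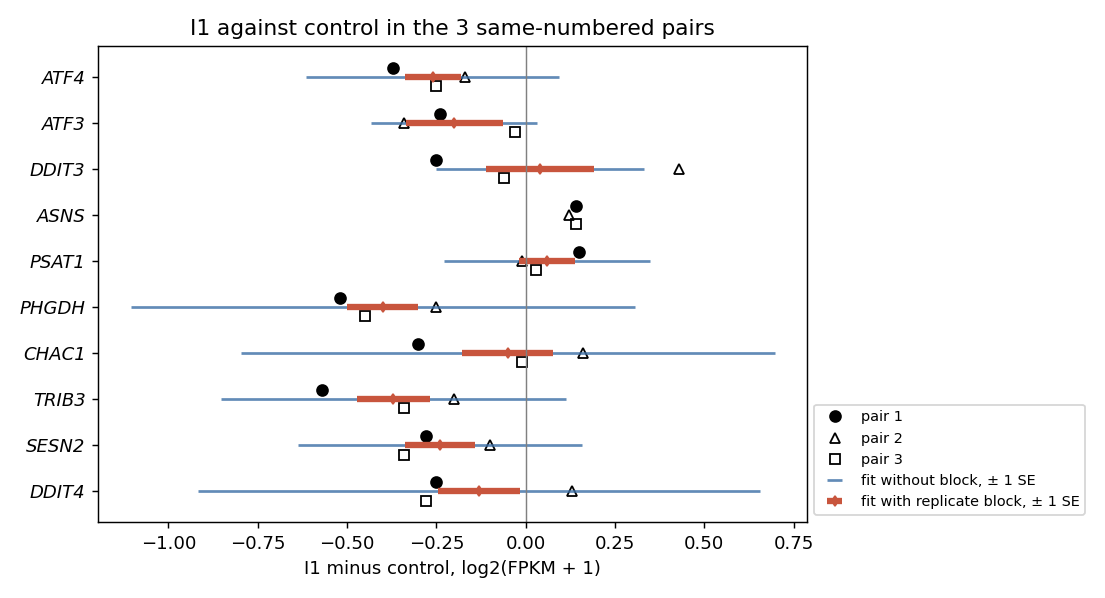
I1 minus control on the log2(FPKM + 1) scale for each gene, with the 3 same-numbered pairs as black symbols, the fitted difference as a diamond, ± 1 SE without the replicate block as the thin bar and with it as the thick bar. PHGDH, TRIB3, ATF4, ATF3 and SESN2 lie below 0 in all 3 pairs, ASNS (not fitted) lies above 0, and the block shortens the bar of each fitted gene.

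The rest of the pathway was read from 7 lists of 107 genes in all, of which 95 were tested. None rose and none fell with I1 by limma (13 at an unadjusted p under 0.05, against 9.57% of all tested genes). The smallest adjusted p among them was 0.467, and 0.140 with the block. Their median log2 fold change was 0.00. By replicate number 12 of the 95 passed, against 2.14% of all tested genes, and 11 of these 12 were highest at number 1 and lowest at number 2 or, for SHMT2 with I1, at number 3.

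Of 11 tested amino acid transporters, 4 passed by number. They were SLC7A5 and SLC3A2, the chains of the large neutral amino acid exchanger, the alanine and serine carrier SLC1A4 and the glycine carrier SLC6A9. SLC7A5 had 108, 45.2 and 60.2 FPKM in control and 76.8, 43.3 and 59.3 with I1 (adjusted p = 0.0361). SLC6A9 had 4.44, 0.526 and 1.46 against 2.64, 0.549 and 1.38 (0.0366). Both showed the profile of CHAC1 and PHGDH, with a lower number 1 in the I1 group. The glutamine carrier SLC38A2 had the largest difference upward in this list with I1, 0.48 ± 0.232 (adjusted p = 0.467) and 0.14 after the GC correction, and SLC43A1 the largest downward, -0.23 ± 0.235 (adjusted p = 0.626). SLC1A5, another abundant glutamine carrier, had 61.4 ± 14.0 FPKM in control and 52.0 ± 6.91 with I1.

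Of 20 cytosolic aminoacyl-tRNA synthetases, which load tRNA with amino acids, 3 passed by number: AARS1, CARS1 and MARS1. AARS1 had 86.0, 50.8 and 61.4 FPKM in control and 70.1, 46.3 and 49.6 with I1 (adjusted p = 0.0455). MARS1, with 37.0 ± 12.2 FPKM in control and 29.7 ± 8.26 with I1 (0.0317 by number), had the largest difference downward with I1 in the list, -0.30 ± 0.253. The abundant EPRS1 and FARSA had differences of 0.22 and -0.24, and neither they nor MARS1 passed the test of I1 (adjusted p of 0.467 to 0.569). In serine, one-carbon and related synthesis, SHMT2, ALDH1L2 and GPT2 passed by number, 3 of 15. SHMT2, which splits serine in mitochondria, had 65.8, 32.6 and 36.9 FPKM in control and 44.9, 29.1 and 28.1 with I1 (adjusted p = 0.0390). It also had the largest difference downward with I1 in that list, -0.36 ± 0.282 (adjusted p = 0.542). BCAT1, an aminotransferase of branched-chain amino acids, had the largest upward, 0.53 ± 0.194 (adjusted p = 0.467) and 0.19 after the GC correction. ALDH18A1, of proline synthesis, had 60.1 ± 5.28 and 57.3 ± 6.78 FPKM.

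The upstream list holds 18 tested genes, for eIF2 kinases and their regulators, eIF2 and its exchange factor, and regulatory subunits of the eIF2 phosphatase. Of these 0 passed by number by limma, against 2.14% of all tested genes, and 2 after the GC correction, against 6.13%. The abundant eIF2 subunits EIF2S3 and EIF2S2 had 95.2 ± 14.7 and 51.7 ± 3.06 FPKM in control and 106 ± 21.7 and 56.6 ± 3.25 with I1. EIF2AK2, the kinase PKR that senses double-stranded RNA, had 4.74, 10.3 and 8.64 FPKM in control and 11.3, 14.4 and 11.5 with I1. That was 0.64 ± 0.245 on the log2 scale (limma adjusted p = 0.467), with pair differences of 1.10, 0.45 and 0.38 and 0.32 after the GC correction. All I1 replicates lay above all controls, as in 12.9% of all tested genes. EIF2B2, of the exchange factor, had the largest difference downward, -0.30 ± 0.141 (adjusted p = 0.467).

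Among 12 tested bZIP partners, only JUN passed by number, at 17.9, 11.8 and 27.7 FPKM in control and 16.7, 11.7 and 25.2 with I1 (adjusted p = 0.0152), with the profile of DDIT4. CEBPD, a C/EBP factor of inflammation, had 40.5, 19.6 and 30.0 FPKM in control and 14.6, 16.4 and 19.7 with I1, a difference of -0.75 ± 0.246 (adjusted p = 0.467) that was -0.48 after the GC correction. ATF2 had 0.36 ± 0.204 and JUND -0.37 ± 0.240 (adjusted p = 0.467 and 0.495), or -0.01 and -0.11 after the GC correction. Of 16 other tested targets, STC2, a secreted glycoprotein, passed by number with 11.5, 2.89 and 8.88 FPKM in control and 12.4, 2.56 and 9.50 with I1 (adjusted p = 0.00609). KLHL24 had the largest difference upward with I1 in that list, 0.49 ± 0.167, and CEBPB the largest downward, -0.48 ± 0.337 (adjusted p = 0.467 and 0.514), or 0.12 and -0.24 after the GC correction. EIF4EBP1, a brake on translation, had 131 ± 37.3 and 106 ± 11.2 FPKM, and NARS1, which charges asparagine, 44.1 ± 2.54 and 51.4 ± 4.30. GDF15, a stress-induced cytokine, was listed at 0 in all libraries.

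Among 7 tested paralogs, 0 passed by number (limma, 1 after the GC correction). SESN3, a relative of SESN2 that is under FOXO control, had 6.27, 12.3 and 12.4 FPKM in control and 13.6, 14.9 and 20.2 with I1, or 0.64 ± 0.259 (adjusted p = 0.467) and 0.27 after the GC correction. CHAC2, the paralog of CHAC1, had 7.73 ± 1.76 and 8.53 ± 1.66 FPKM, and JDP2 had a difference of -0.23 ± 0.276 (adjusted p = 0.670).

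**Figure D4:**
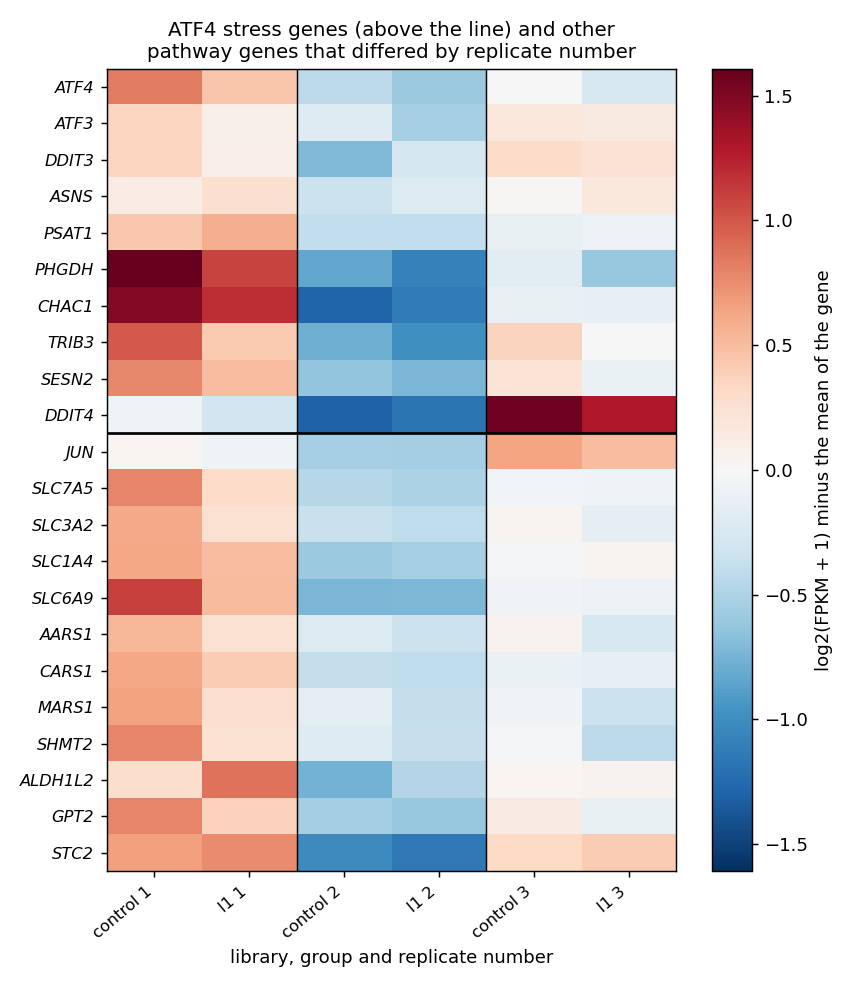
Colour shows log2(FPKM + 1) minus the gene's mean over the 6 libraries (columns, ordered by replicate number, control before I1) for the 10 stress genes above the line and the 12 other pathway genes that differed by number below it. Number 1 columns are mostly red and number 2 columns blue, and DDIT4 and JUN are highest at number 3.

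Likeness of profile was measured as the root mean square difference of centred log2(FPKM + 1) values over the 6 libraries, among 6923 tested genes with a mean of at least 5 FPKM, as a description. At the low level of ASNS this scale flattens its 4.28-fold range among controls, so abundant genes with a much narrower fold range lie close to it. Nearest to ASNS was PDLIM1 (0.0472), with 17.6, 13.1 and 17.2 FPKM in control and 19.2, 13.7 and 19.8 with I1, followed by TCAM1P (0.0596), PGPEP1 (0.0632), ZNF277 (0.0659) and DUSP3 (0.0810). Nearest to DDIT3 were ENSG00000262370 (0.107), VEGFA (0.148), NRN1 (0.151), ENSG00000230699 (0.152) and TGM5 (0.174). VEGFA had 9.58, 5.37 and 8.49 FPKM in control and 8.37, 5.30 and 9.08 with I1, the same low number 2 as DDIT3.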

How the data were processed

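RNA was isolated with Trizol and libraries were made with a stranded mRNA kit, per the labels' protocols. Trimmomatic, HISAT2, Cufflinks and HTSeq with hg38 are named in the submitters' processing notes, without roles or versions. The authors deposited FPKM values for 29810 genes in 6 columns. The name of the deposited table gives other cell lines and a different agent, but its columns carry the names of the 6 samples and were matched on them. Symbols were found for 29507 identifiers, and places come from GENCODE release 29. With its exon lengths, values were whole reads within 0.05 in all libraries for 95.9% of 29703 genes, DDIT3 not among them. The members, lists and settings were chosen with earlier results of these data known.

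limma 3.58.1 (R 4.3.3, with an intensity trend) was run on log2(FPKM + 1) for the 11913 genes that reached 1 FPKM in 3 or more libraries, 2-sided with Benjamini-Hochberg adjustment. The code was also run on simulated data. Those simulated reads had no GC trend and few genes that differed by replicate number, so that run does not cover the spread of these libraries. The F test of the replicate number was added after the values were seen. Named genes are all members and, per list, the 2 most abundant genes and the largest rise and fall; others named were chosen after their values were seen, such as those that passed by number. One gene that the rule names is not reported here.

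Replicate numbers were taken to pair the samples. Same-numbered samples deviated together from their groups, with correlations of 0.476, 0.457 and 0.412, and at -0.348 to -0.0987 for other pairs. The deviations within a group cancel out for each gene, so positive same-numbered values by themselves push the other pairs negative. Libraries of a group differed by more than sampling noise, with chi-square over its degrees of freedom at 21.6 to 73.6. GC correction removed each library's lowess trend (span 0.3) on the GC content of the longest transcript. Promoter sequences are from RefSeq.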

Additional observations from a re-analysis of the deposited data

How the results depend on the processing

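No member passed the test of I1 against control under any of the 16 alternatives, which were the replicate block, GC correction, both together, pseudocounts of 0.1 and 0.5, no filter, a mean of at least 5 FPKM, median ratio scaling, quantile normalization, protein-coding genes alone, and leaving out each library. The 95 other pathway genes gave 0 as well. The replicate block changed no call among these genes. Leaving out a library unbalances the numbers, and the members' median then ranged from -0.61 to 0.09.

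Directions changed with the GC correction, with or without the replicate block, for PSAT1 (-0.15), CHAC1 (0.15) and DDIT4 (0.03), and with quantile normalization for DDIT3 (-0.06). Median ratio scaling, which shifts all genes of a library alike, left DDIT3 at -0.01 and PSAT1 at 0.00, at or next to no difference. Over single libraries left out, ATF4 ranged from -0.55 to 0.08, ATF3 from -0.36 to 0.01, DDIT3 from -0.30 to 0.23, PSAT1 from -0.22 to 0.29, PHGDH from -1.05 to 0.30, CHAC1 from -0.70 to 0.68, TRIB3 from -0.86 to 0.03, SESN2 from -0.61 to 0.09 and DDIT4 from -0.81 to 0.62.

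Over all genes, I1 calls numbered 4 (1140 at an unadjusted p under 0.05), with 6 under the block, 0 to 4 under the other settings and 0 to 2 with a library left out. Calls by number were 255, with 730 after the GC correction, 493 at a mean of at least 5 FPKM, 384 after quantile normalization, 1368 among protein-coding genes, and 54 to 3528 with a library left out.

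By replicate number 7 members passed, 0 without a filter, 9 among protein-coding genes alone, and 3 to 8 with a library left out. ASNS, with 10 to 52 counted reads, is limited by depth, and the genes that overlap it leave its level uncertain.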

Other observations

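Other genes differed by replicate number more than most stress genes did, and many had the profile of DDIT4. Of the 40 protein-coding genes with a mean of at least 5 FPKM and the smallest p in limma's F test of the number, a set chosen after the values were seen, 28 were highest at number 3 in both groups, 9 at number 1 and 2 at number 2. At number 2, 34 of the 40 were lowest. Of all 255 genes that passed by number, 97 were highest at number 3, 116 at number 1 and 29 at number 2, and 140 were lowest at number 2. Of all 11913 tested genes, 1632 were highest at number 3, 2391 at number 1 and 2931 at number 2, and 1785 were lowest at number 2. Of the 9 highest at number 1, PHGDH, CHAC1, TRIB3, ATF4, SESN2 and STC2 are described above. PFKFB4, a glycolysis regulator known to respond to low oxygen, led the ranking with 3.14, 1.52 and 26.7 FPKM in control and 3.83, 1.57 and 23.9 with I1 (adjusted p = 0.00170). BNIP3, a mitophagy gene, had 6.48, 8.13 and 32.6 against 9.44, 8.43 and 33.4 (0.00598). SCD, which desaturates fatty acids, had 118, 63.7 and 270 FPKM in control and 167, 71.2 and 327 with I1 (0.00313), LSS, of sterol synthesis, 32.2, 16.8 and 59.1 against 31.0, 16.6 and 55.7 (0.00374), and HMGCS1 28.7, 28.9 and 143 against 53.4, 31.7 and 175 (0.00723). MT2A, a metallothionein, was highest at number 2, with 171, 353 and 178 against 136, 346 and 153 FPKM (0.00950). These genes are given as values only.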
